A study of Mus musculus with 60 samples.

Results

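The forkhead transcription factor genes were followed through the conversion of mouse embryonic stem cells to the 2i state, in 2 wild-type lines and in lines without Eed or Ezh2. Members were taken by name: every gene symbol in the count table made of Fox, a letter from a to s and a number, leaving out Foxa2 and Foxd3. This gave 43 of the 50559 genes in the table. The rule used no measured value. Polyadenylated RNA was sequenced from 60 libraries, 3 for each of 20 groups, which the labels call biological replicates, and all p-values measure the spread between these. The groups combined 4 lines with 5 times in 2i (0, 12, 24, 48 and 96 h). The lines were 1A wild type, V19 wild type (derived independently of 1A), and an EED knockout and an EZH2 knockout made from 1A by Cas9 editing. All cells grew in serum medium with LIF on gelatin, and the 0 h libraries had no 2i. The labels give no group without 2i at the later times. An effect of 2i and one of time in culture therefore cannot be told apart. 2i is CHIR99021 (3 µM), an inhibitor of GSK3, with PD0325901 (1 µM), an inhibitor of MEK, exchanged every day. Each knockout is a single line in the labels, so an effect of the lost gene and a property of that 1 line cannot be told apart.

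Forkhead proteins share a winged-helix DNA-binding domain, the forkhead box, and are grouped into lettered subfamilies by the similarity of that domain. Some, such as the FoxO, FoxP and FoxK proteins, are made in many cell types and act in nutrient signalling, cell cycle and survival. Others are switched on in single lineages, among them the endoderm factors of the FoxA group and the mesoderm factors of the FoxC, FoxD and FoxF groups. Eed and Ezh2 are core subunits of Polycomb repressive complex 2 (PRC2), which methylates histone H3 at lysine K27, and many developmental regulators carry that mark in embryonic stem cells. Ezh1 can stand in for Ezh2 in the complex, whereas Eed has no close relative that does so.

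Library totals ran from 2561169 to 11065948 assigned reads (median 6055990). Levels are given as CPM, the counts of a gene per 1000000 reads of its library after scaling by TMM factors. Eed had 15.3 to 28.1 CPM without Eed and 246 to 393 CPM in 1A wild type, and Ezh2 at 14.5 to 19.9 CPM in the Ezh2 knockout against 194 to 277 CPM. All 10 pluripotency markers had counts in every group. The root mean square deviation of a library from its group, over genes on the log2 scale, had a median of 0.226 and was highest in V19 wild type at 48 h (0.439). With that group left out, together with the 12 h knockout groups and the first 24 h library of 1A (an alternative chosen after seeing the data), all 174 calls of members described here remained. Bulk RNA-seq cannot tell fewer cells with a transcript from less transcript per cell. All comparisons with 1A wild type share its libraries.

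RefSeq promoter windows of 300 bases on GRCm38.p6 were found for 26 of the 43 members, 29 windows in all, because Foxp1 has 3 starts and Foxp3 has 2. Forkhead promoters were rich in CpG dinucleotides. The median window of a member held 22 CpG, against 7 in all 32851 windows of the table, and 21 of the 29 held 10 or more, against 43.5% of all windows. The 4 windows below are examples from genes whose RNA differed between lines by more than 2-fold. Foxf2, Foxd1 and Foxl2 were higher in the Eed knockout and Foxr2 was lower. For Foxf2, Foxl2 and Foxr2 that direction was fixed by the filter on low counts described below. Other such genes are not shown. Among them, Foxj2 (37 CpG) was higher in the Eed knockout. Foxn4 (22 CpG) and Foxp1 (44, 5 and 13 CpG in its 3 windows) were lower there in serum. Whether CpG content goes with the direction was not tested. CpG is in capitals. Foxf2 (chr13:31625566-31625865, plus strand) and Foxl2 (chr9:98955357-98955656, plus strand) each held 27 CpG, Foxd1 (chr13:98353995-98354294, plus strand) held 15 and Foxr2 (chrX:153118538-153118837, plus strand) held 3.
Foxf2: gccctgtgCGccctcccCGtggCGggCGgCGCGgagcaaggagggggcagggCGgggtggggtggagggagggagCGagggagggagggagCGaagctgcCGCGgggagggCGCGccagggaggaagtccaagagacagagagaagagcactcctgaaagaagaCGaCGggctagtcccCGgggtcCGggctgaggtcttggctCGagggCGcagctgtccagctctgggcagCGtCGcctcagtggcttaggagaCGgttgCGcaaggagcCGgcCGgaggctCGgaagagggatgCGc
Foxd1: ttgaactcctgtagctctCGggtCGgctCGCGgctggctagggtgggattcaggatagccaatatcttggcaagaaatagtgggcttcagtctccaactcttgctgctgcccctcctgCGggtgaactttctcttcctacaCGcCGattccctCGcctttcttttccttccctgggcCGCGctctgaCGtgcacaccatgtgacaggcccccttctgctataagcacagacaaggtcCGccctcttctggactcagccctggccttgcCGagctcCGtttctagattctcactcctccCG
Foxl2: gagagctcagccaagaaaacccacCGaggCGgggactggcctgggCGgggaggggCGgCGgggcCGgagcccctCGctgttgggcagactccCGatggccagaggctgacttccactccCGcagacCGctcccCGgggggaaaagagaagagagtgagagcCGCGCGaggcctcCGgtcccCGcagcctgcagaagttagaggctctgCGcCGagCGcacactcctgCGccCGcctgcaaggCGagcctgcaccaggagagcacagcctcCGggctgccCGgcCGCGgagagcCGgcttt
Foxr2: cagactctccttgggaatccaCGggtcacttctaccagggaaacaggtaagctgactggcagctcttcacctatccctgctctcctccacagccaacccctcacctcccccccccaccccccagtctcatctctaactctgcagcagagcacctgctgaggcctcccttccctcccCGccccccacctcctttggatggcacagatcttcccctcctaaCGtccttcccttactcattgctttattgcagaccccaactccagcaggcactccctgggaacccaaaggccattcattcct
The range over the members' windows went from 3 CpG in Foxr2, where 23.3% of all windows held fewer, to 59 in Foxk2. The forkhead binding motif GTAAACA, searched on both strands, stood in 1 member window (Foxa1) and in 3.65% of all windows. The TATA motif TATAAA stood in 2 and 13.6%, and CCAAT in 14 and 37.4%. These are matches of letters, and binding was not measured.

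Of the 43 members, 31 passed the filter on low counts (edgeR's filterByExpr, 10 counts at the median library size, here 1.65 CPM, in at least 3 libraries), as did 15083 of all genes. The other 12 were Foxb1, Foxb2, Foxd4, Foxe3, Foxi1, Foxi2, Foxl1, Foxl3, Foxn1, Foxp2, Foxp3 and Foxs1. Foxl1, a factor of the gut mesenchyme, had 0 counts in the 365570683 reads of the 60 libraries, which allows up to 0.00818 CPM over them. Foxp3, the factor of regulatory T cells, had 38 counts in all, and its model overlaps Ccdc22 on the opposite strand, which had 8701. Of the 31 tested members, 24 had at least 3 wild-type libraries above the filter. The other 7 (Foxa1, Foxc1, Foxc2, Foxd2, Foxf1, Foxf2 and Foxl2) passed only through Eed knockout libraries, so they had to be higher there, and their values in that line are a description. Foxr2 passed only through wild-type libraries of 0, 12 and 24 h and had 0 knockout libraries above the filter. It thus had to be lower in both knockouts and at 96 h in the wild types, and its tests there support nothing.

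Per kilobase of annotated exon and averaged over the 20 groups, Foxp4 (20.9 CPM per kb) and Foxh1 (19.5) had the highest levels. Foxo3 (14.9), Foxm1 (14.8), Foxo4 (13.7) and Foxk2 (13.0) followed. These 6 genes are a transcriptional repressor of the FoxP class, the Nodal partner, 2 FoxO factors, the G2/M regulator and a FoxK factor. Foxk2 changed least, with 1.41 times between its highest and lowest group means. Foxp1, with 48.7 times, changed more than any other member whose lowest group mean was above 1 CPM. The reads of its isoforms, one of which is known from pluripotent cells, are summed in the table. Foxh1 (chr15:76552029-76554286, minus strand) overlaps Kifc2 on the other strand, which had 1003 counts in all against 13610 for Foxh1. The map of group means shows the broad contrast between the FoxH, FoxM, FoxO, FoxP, FoxK and FoxN rows and the low rows of the lineage factors.

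**Figure D1:**
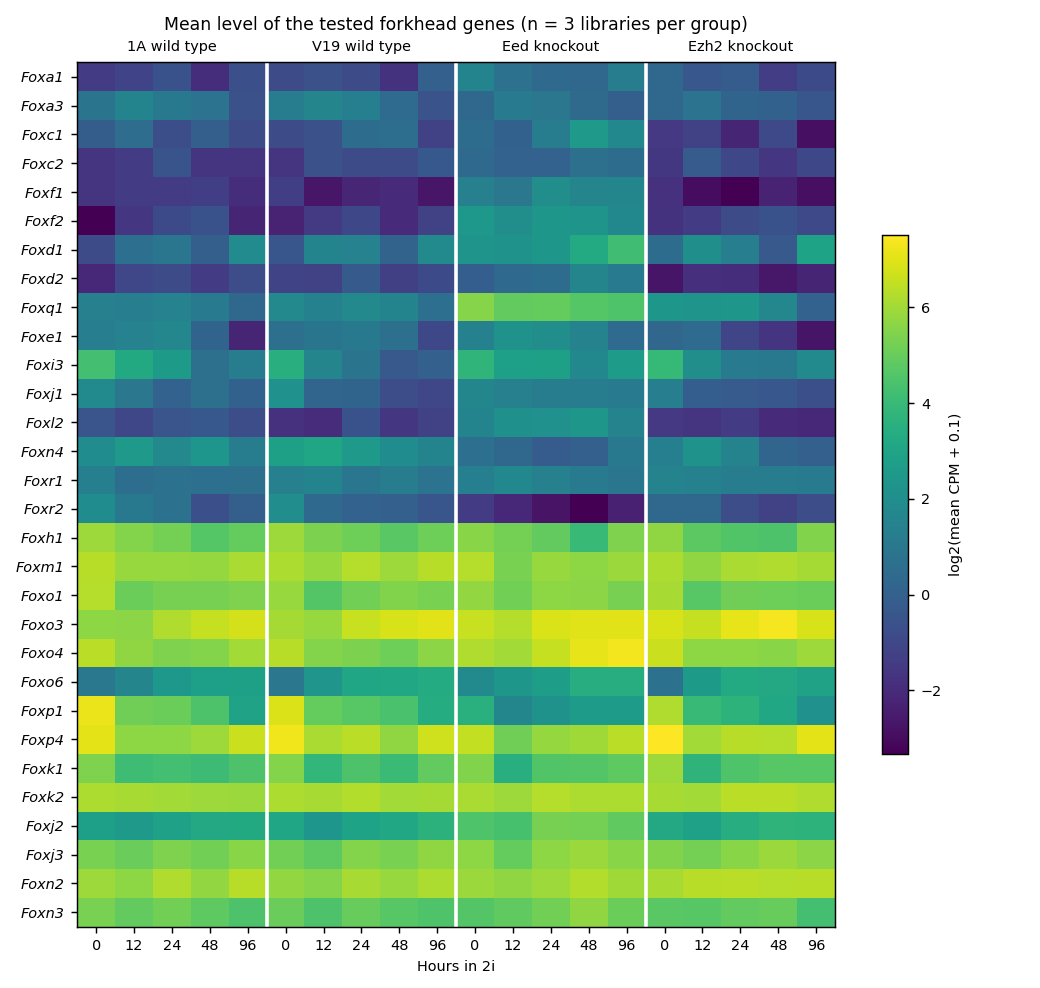
Mean level of 30 of the 31 tested forkhead genes in each of the 20 groups, as log2 of mean CPM plus 0.1 (colour), with genes in rows by role and hours in 2i in columns by line. The Foxf1, Foxf2, Foxq1, Foxd1 and Foxl2 rows are brighter in the Eed knockout than in the other lines. The Foxp1 row is darker at 96 h than at 0 h in each line.

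In 1A wild type, more forkhead genes fell than rose over the first 12 h of 2i. Of 31 tested members, 12 fell and 2 rose in the quasi-likelihood test of edgeR at an adjusted p under 0.05 (Benjamini-Hochberg, over all genes tested). Among all genes, 20.8% fell and 20% rose. The median log2 change was -0.26 for members and 0.02 for all genes. Broadly made factors were among the falls, with log2 changes of -2.03 ± 0.12 (SE) for Foxp1, -1.38 ± 0.12 for Foxp4, -1.26 ± 0.21 for Foxk1 and -1.21 ± 0.09 for Foxo1. Single libraries carried some of the weaker calls. Foxd1 (1.78 ± 0.53) lost its call without replicate 1 at 12 h (1.44, adjusted p = 0.062). Foxj1 and Foxr2 lost theirs without replicate 2 at 0 h (-0.56, adjusted p = 0.22, and -0.79, adjusted p = 0.076). Foxn2 lost its call in 5 of the 6 fits that left out 1 library and Foxn4 in 4 of 6, with adjusted p up to 0.18 and 0.16.

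At 96 h of 2i in 1A wild type, 14 members were lower and 4 higher than in serum, against 23.5% and 25.1% of all genes. In V19 wild type, 14 were lower and 6 higher, against 22.7% and 24.8%. The lower members of both lines include Foxr2, which had to be lower at 96 h through the filter. The medians were -0.39 in 1A and -0.49 in V19 for members, and 0.02 and 0.01 for all genes. In no member was the difference between the responses of the wild-type lines called (0 higher and 0 lower, against 0.975% and 0.709% of all genes). For that difference, 5 members had an unadjusted p under 0.05 in edgeR. DESeq2 called 0, and edgeR called 2 when fitted on the groups compared alone or without the libraries that stood apart. By role, 2 of 2 tested FoxP genes fell in each wild type, and 2 of 4 FoxO genes fell and 2 rose. The plot of 96 h responses sets the 4 lines side by side.

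**Figure D2:**
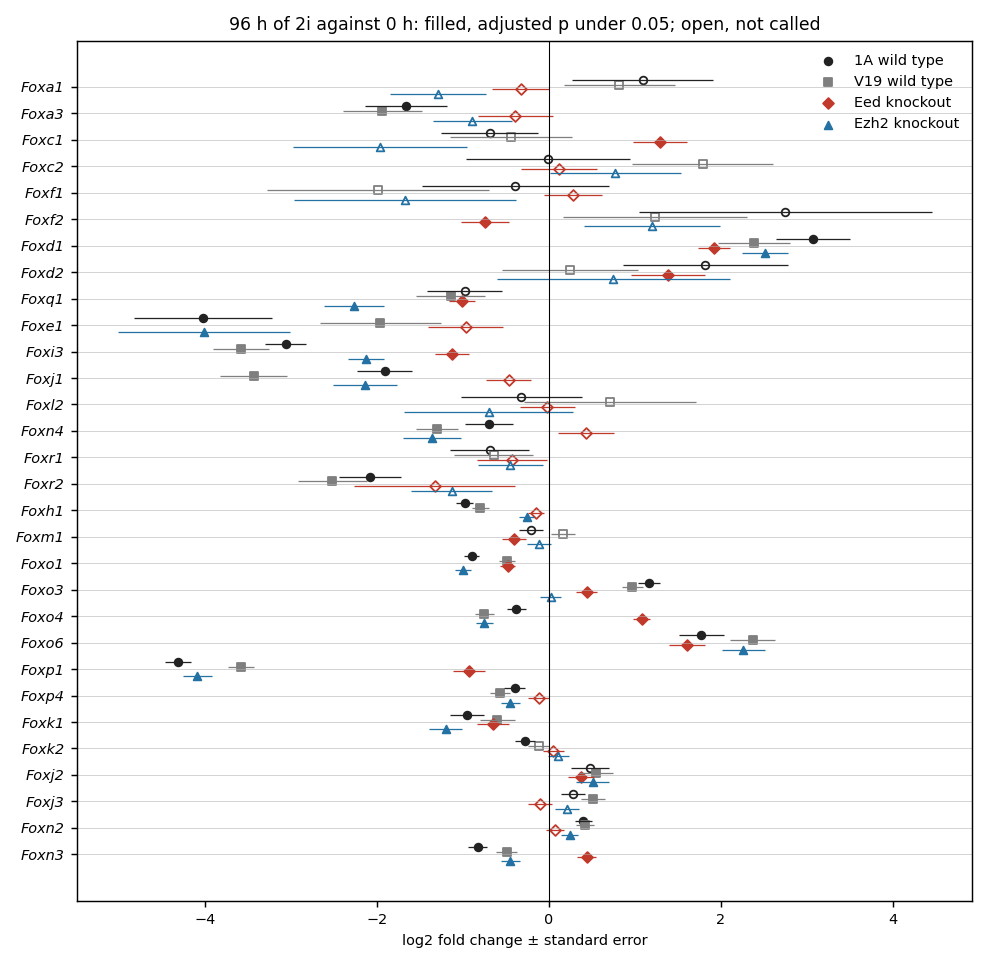
Log2 fold change at 96 h of 2i against 0 h with its standard error, for 30 of the 31 tested forkhead genes (rows) in the 4 lines (symbols); filled symbols passed an adjusted p of 0.05. Foxp1, Foxi3 and Foxj1 lie far to the left in both wild types and in the Ezh2 knockout, and Foxo4 lies to the right only as the Eed knockout's symbol.

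Foxp1 (chr6:98902303-99510587, minus strand), a repressor with broad roles in lymphoid, lung and heart development, had the largest fall in 1A. In 1A wild type its 3 libraries stood at 150, 132 and 158 CPM in serum and at 6.83, 7.04 and 8.24 CPM at 96 h (log2 change -4.31 ± 0.15, adjusted p = 5.1e-29). In V19 they went from 120, 129 and 122 CPM to 10.3, 12.0 and 8.77 CPM (-3.58 ± 0.15, adjusted p = 3.4e-26). The times did not overlap in either line. The fall was stepwise in 1A: group means were 146 ± 13.3 (SD, n = 3) at 0 h, 35.8 ± 2.13 at 12 h, 33.6 ± 3.11 at 24 h, 22.0 ± 3.47 at 48 h and 7.37 ± 0.762 CPM at 96 h.

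Foxp4 (chr17:48178058-48235557, minus strand), its relative in lung and gut, fell early and then came back in part. Its 1A libraries stood at 125, 139 and 136 CPM in serum, 52.0, 56.4 and 45.5 CPM at 12 h and 100, 104 and 99.8 CPM at 96 h. The 96 h libraries lay below all serum libraries and above all those at 12 h (-0.40 ± 0.12 against serum, adjusted p = 0.0037). In V19 the serum libraries held 173, 131 and 163 CPM and the 96 h libraries 108, 105 and 104 CPM (-0.57 ± 0.12, adjusted p = 6.2e-05), again without overlap.

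The FoxO genes, whose proteins are kept out of the nucleus when insulin or growth factor signals activate Akt, split in the wild types. Foxo3 and Foxo6 rose by 96 h and Foxo1 and Foxo4 fell, in both lines. Foxo3 (chr10:42057841-42152691, minus strand) stood at 50.5, 52.2 and 49.0 CPM in 1A serum libraries and 113, 120 and 106 CPM at 96 h (1.16 ± 0.13, adjusted p = 4.7e-11). In V19 it went from 68.3, 66.1 and 62.9 CPM to 135, 129 and 122 CPM (0.97 ± 0.12, adjusted p = 4.9e-09). Every 96 h library was above every serum library of its line. Foxo6 (chr4:120124275-120144458, minus strand), best known from brain, was low in serum, at 3.10, 1.14 and 1.52 CPM in 1A and 2.27, 1.23 and 2.13 CPM in V19. At 96 h it reached 5.88, 8.75 and 6.23 CPM in 1A (1.77 ± 0.26, adjusted p = 1.4e-07) and 11.2, 10.1 and 8.77 CPM in V19 (2.37 ± 0.26, adjusted p = 4.1e-11), with no overlap.

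Foxo1 (chr3:52175758-52257530, plus strand) dropped within 12 h and stayed low. In 1A it was at 77.0, 77.3 and 81.2 CPM in serum, 35.0, 32.6 and 34.1 CPM at 12 h and 40.8, 43.0 and 42.3 CPM at 96 h (-0.90 ± 0.09, adjusted p = 1e-12). In V19 the serum libraries held 58.0, 55.9 and 57.2 CPM and the 96 h libraries 41.0, 37.6 and 43.2 CPM (-0.49 ± 0.09, adjusted p = 9.1e-06). Both lines were lower at 96 h in every library. Foxo4 (chrX:100297855-100304479, plus strand) went from 77.1, 85.1 and 90.9 CPM to 61.0, 75.0 and 57.5 CPM in 1A (-0.38 ± 0.11, adjusted p = 0.0024). In V19 it went from 93.8, 71.2 and 81.2 CPM to 50.7, 47.8 and 48.0 CPM (-0.75 ± 0.11, adjusted p = 1.1e-07). The lowest serum library was above the highest 96 h library in each line, by a small margin in 1A.

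Among the FoxK, FoxJ2/J3 and FoxN2/N3 genes, Foxk1 (chr5:142387252-142447770, plus strand), a repressor of autophagy genes, fell most. In 1A its libraries stood at 37.1, 43.4 and 48.5 CPM in serum, 18.6, 16.5 and 18.5 CPM at 12 h and 22.1, 23.0 and 21.1 CPM at 96 h (-0.95 ± 0.20 at 96 h, adjusted p = 0.00012). In V19 the values were 45.5, 37.8 and 50.2 CPM in serum and 31.9, 27.7 and 28.9 CPM at 96 h (-0.60 ± 0.20, adjusted p = 0.012). Serum libraries were higher throughout, and the V19 call was lost without replicate 3 at 0 h (-0.51, adjusted p = 0.059). Foxn3, a checkpoint factor, was lower in both lines (-0.83 ± 0.11 and -0.49 ± 0.12) and Foxn2 higher in both (0.40 ± 0.10 and 0.42 ± 0.10). Foxj3 rose in V19 (0.51 ± 0.14). Foxj2 was called higher in V19 (0.55 ± 0.20), though its libraries overlapped and the call was lost without replicate 2 at 0 h or without replicate 2 or 3 at 96 h (adjusted p = 0.24, 0.076 and 0.099). Foxk2 was called lower in 1A (-0.28 ± 0.12), a call lost in 5 of the 6 fits that left out 1 library (adjusted p up to 0.16).

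**Figure D3:**
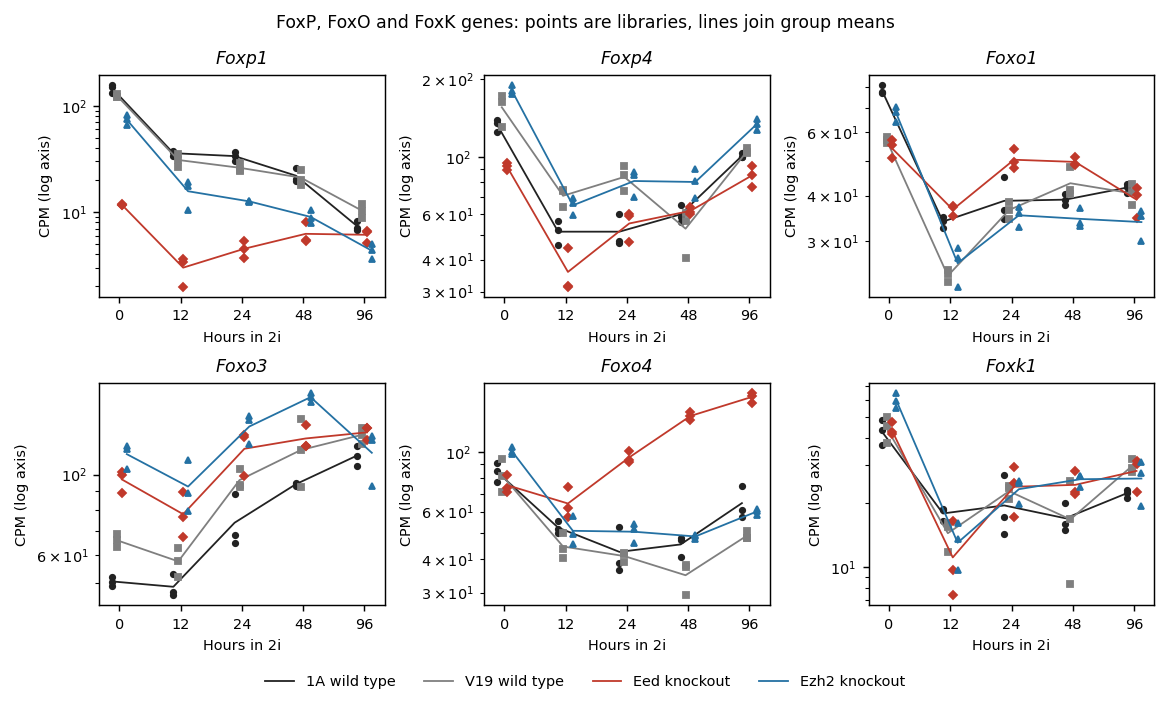
CPM (log axis) against hours in 2i for Foxp1, Foxp4, Foxo1, Foxo3, Foxo4 and Foxk1, with 1 point per library and lines through group means of the 4 lines. Foxp1 ends below its serum level in all 4 lines, and Foxo4 ends above its serum level only in the Eed knockout. Foxo3 of 1A wild type starts below the knockouts at 50.6 CPM and ends near them at 113 CPM.

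Foxh1, the DNA-binding partner of Smad2 and Smad3 under Nodal, fell in both wild types. Its 1A libraries stood at 58.7, 58.9 and 62.7 CPM in serum and 28.9, 27.8 and 34.8 CPM at 96 h (-0.98 ± 0.10, adjusted p = 4.2e-12). Its V19 libraries stood at 63.6, 56.3 and 62.3 CPM and then at 34.4, 32.4 and 37.8 CPM (-0.80 ± 0.10, adjusted p = 1.4e-09). Neither line's times overlapped. Foxm1 (chr6:128339957-128352849, plus strand), which drives G2/M genes, was lower at 12 h in 1A (81.7 ± 6.70 against 56.6 ± 3.96 CPM, SD, n = 3; -0.52 ± 0.14, adjusted p = 0.0025). At 96 h its change was not called in 1A (-0.21), in V19 (0.16) or in the Ezh2 knockout (-0.12). In the Eed knockout it was lower (-0.41 ± 0.14, adjusted p = 0.016), a call lost without replicate 1 or 2 at 0 h or replicate 2 at 96 h (adjusted p = 0.059, 0.052 and 0.083).

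Of the lineage factors, the ectoderm genes Foxi3 and Foxe1 and the cilia gene Foxj1 were lower at 96 h in both wild types. Foxi3 (chr6:70933590-70938050, plus strand), a factor of the pharyngeal arches and placodes, stood at 17.0, 21.4 and 19.5 CPM in 1A serum libraries and 2.22, 2.66 and 2.02 CPM at 96 h (-3.06 ± 0.24, adjusted p = 9.5e-16). In V19 it went from 12.7, 10.6 and 9.56 CPM to 0.458, 1.52 and 0.688 CPM (-3.58 ± 0.33, adjusted p = 2.3e-13). No library of one time reached those of the other. Foxj1, the regulator of motile cilia, was lower in 1A (-1.91 ± 0.32) and V19 (-3.43 ± 0.39). Foxe1, a thyroid factor, fell from 37 to 2 counts over the 3 libraries in 1A (-4.02 ± 0.80). In V19 its libraries overlapped (-1.96 ± 0.70), and the call was lost without replicate 1 at 0 h (-1.23, adjusted p = 0.26) or replicate 3 at 96 h (-1.57, adjusted p = 0.097).

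Foxr2, a gene best known for its activation in brain tumours, was lower at 96 h in both wild types (-2.08 ± 0.36 and -2.52 ± 0.40). It had passed the filter only through earlier wild-type libraries, and no library of 96 h was above it. Its fall was thus fixed by the filter and is a description. The liver factor Foxa3 fell (-1.66 ± 0.48 and -1.94 ± 0.46), whose 1A call was lost without replicate 1 at 0 h (-1.36, adjusted p = 0.05). Foxn4 (chr5:114392225-114412486, minus strand), a factor of retina and spinal cord, stood at 3.25, 4.24 and 3.81 CPM in 1A serum libraries and 1.75, 3.24 and 2.02 CPM at 96 h (-0.70 ± 0.28). That call was lost in 4 of the 6 fits that left out 1 library, with adjusted p up to 0.18. In V19 Foxn4 went from 7.79, 5.52 and 7.65 CPM to 2.52, 3.04 and 2.92 CPM (-1.30 ± 0.24, adjusted p = 1.3e-05), without overlap. Foxd1 (chr13:98490753-98493213, plus strand), a factor of the kidney stroma, rose instead. It stood at 0.295, 0.326 and 0.761 CPM in 1A serum libraries and 3.18, 4.38 and 3.48 CPM at 96 h (3.07 ± 0.43, adjusted p = 4.1e-08). In V19 it went from 0.649, 0.409 and 0.850 CPM to 5.04, 3.42 and 2.06 CPM (2.38 ± 0.42, adjusted p = 4.1e-06). Its level was not steady: the 1A mean at 48 h was 0.860 ± 0.335 CPM and the V19 mean 1.00 ± 0.490 CPM (SD, n = 3), below the means at 24 h (1.79 and 2.65 CPM).

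In the Eed knockout, 7 members were lower and 8 higher at 96 h of 2i, against 16.4% and 23.3% of all genes. The median was -0.10 against 0.05. Of the 24 members with at least 3 wild-type libraries above the filter, 6 fell and 6 rose. In the Ezh2 knockout 12 fell and 4 rose, against 20.7% and 22.2%, with a median of -0.64 against 0.02 (15 and 2 on the authors' RUV-normalized table, from a method that removes variation judged to be unwanted, tested with limma-trend). Foxp1 ended low in every line but started from different levels. Its Ezh2 knockout libraries went from 81.2, 75.0 and 65.4 CPM to 3.63, 4.99 and 4.36 CPM (-4.09 ± 0.17, adjusted p = 1e-26). Its Eed knockout libraries were already at 11.6, 11.8 and 11.6 CPM in serum and ended at 6.67, 5.09 and 6.56 CPM (-0.93 ± 0.19, adjusted p = 6.4e-05), after 3.00 ± 0.885 CPM (SD, n = 3) at 12 h. On the authors' RUV-normalized values, the fall of Foxp1 in the Eed knockout was not called (-0.40, adjusted p = 0.095).

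The difference of the 96 h response between knockout and 1A wild type was tested as an interaction term. For Eed, 10 members responded more positively and 1 more negatively, against 14.9% and 12.4% of all genes (medians 0.30 and 0.02). Of the 24 with at least 3 wild-type libraries above the filter, these were 9 and 1. Without the filter on low counts the interaction was called for 7 in place of 11. For Ezh2 the counts were 1 and 1, against 5.42% and 6.76% (medians -0.10 and -0.01), and 5 in all when only the groups compared were fitted. On RUV-normalized values they were 1 and 2. The term for Foxp1 was 3.37 ± 0.26 for Eed (adjusted p = 4e-15), and none was called for Ezh2.

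Foxo4 rose in the Eed knockout where it fell elsewhere. Its Eed knockout libraries stood at 81.8, 73.4 and 70.7 CPM in serum, overlapping those of the wild types, and at 165, 152 and 162 CPM at 96 h (1.08 ± 0.10, adjusted p = 1.1e-12). Group means there were 64.3 ± 8.46 at 12 h, 95.4 ± 4.69 at 24 h and 136 ± 5.15 CPM at 48 h (SD, n = 3). Its Ezh2 knockout libraries went the other way, from 97.8, 104 and 100 CPM to 58.5, 61.2 and 60.4 CPM (-0.75 ± 0.10, adjusted p = 4.7e-08). The difference of response for Eed was 1.47 ± 0.15 (adjusted p = 2.6e-11). Foxn3 also changed direction, falling in the other lines and rising in the Eed knockout from 23.4, 26.3 and 24.2 CPM to 34.1, 32.7 and 33.1 CPM (0.44 ± 0.11; interaction 1.27 ± 0.16, adjusted p = 7.2e-09).

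Foxo3 was high from the start in both knockouts. Its serum libraries held 100, 88.8 and 102 CPM in the Eed knockout and 104, 120 and 118 CPM in the Ezh2 knockout, all above the 3 libraries of either wild type. At 96 h they held 135, 125 and 135 CPM (0.44 ± 0.12, adjusted p = 0.0024) and 93.3, 125 and 128 CPM (0.02, not called). The Ezh2 knockout times overlapped, and its mean had been 164 ± 4.38 CPM at 48 h (SD, n = 3). The interaction was -0.72 ± 0.17 for Eed (adjusted p = 0.0011) and -1.14 ± 0.17 for Ezh2 (adjusted p = 2.2e-06).

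Foxh1 kept more of its level in both knockouts. It went from 49.3, 46.6 and 46.5 CPM to 38.6, 43.6 and 45.9 CPM in the Eed knockout (-0.15, not called). In the Ezh2 knockout it went from 47.5, 55.0 and 56.2 CPM to 42.4, 43.8 and 46.2 CPM (-0.26 ± 0.09), a call lost in 4 of the 6 fits that left out 1 library (adjusted p up to 0.081). The interactions were 0.82 ± 0.14 (adjusted p = 3.9e-06) and 0.71 ± 0.14 (adjusted p = 0.00011). Its course was not monotonic, since the 48 h means were 16.2 ± 0.804 CPM in the Eed and 22.3 ± 1.57 CPM in the Ezh2 knockout (SD, n = 3), against 25.4 ± 1.88 CPM in 1A wild type.

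Foxo1 fell in each knockout by 96 h, from 56.9, 55.3 and 50.7 CPM to 42.0, 34.8 and 40.1 CPM without Eed and from 64.0, 68.2 and 70.2 CPM to 30.0, 36.2 and 35.2 CPM without Ezh2. Its falls were -0.48 ± 0.09 and -1.0 ± 0.09, with an interaction of 0.42 ± 0.12 for Eed (adjusted p = 0.0072). Foxo6 rose in both, from 3.61, 2.96 and 3.87 CPM to 10.2, 10.8 and 11 CPM (1.61 ± 0.21) and from 1.72, 1.14 and 1.85 CPM to 6.93, 7.95 and 7.52 CPM (2.26 ± 0.25). These are the same directions as in the wild types, with no overlap between the times.

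Foxk1 went from 42.6, 41.7 and 47.5 CPM to 31.3, 22.4 and 30.4 CPM in the Eed knockout (-0.65 ± 0.19), a call lost without replicate 2 at 96 h (-0.51, adjusted p = 0.059). In the Ezh2 knockout it went from 55.3, 59.5 and 64.6 CPM to 19.3, 27.5 and 30.8 CPM (-1.20 ± 0.19, adjusted p = 7.7e-07). Foxp4 stood at 92.2, 89.2 and 95.1 CPM in Eed knockout serum libraries and 76.6, 85.5 and 91.9 CPM at 96 h, which overlapped (-0.12, not called). In the Ezh2 knockout Foxp4 went from 175, 181 and 191 CPM to 127, 134 and 140 CPM (-0.45 ± 0.11, adjusted p = 0.001).

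Foxi3 fell less in the Eed knockout, from 15.2, 12.2 and 13.1 CPM to 5.89, 4.22 and 8.38 CPM (-1.13 ± 0.20; interaction 1.93 ± 0.33, adjusted p = 7.2e-06). In the Ezh2 knockout it went from 15.6, 13.3 and 17.1 CPM to 2.47, 3.70 and 4.03 CPM (-2.13 ± 0.21), and its interaction was not called. Foxn4 was called lower in the Ezh2 knockout, from 3.95, 1.90 and 1.54 CPM to 0.824, 0.924 and 0.981 CPM (-1.36 ± 0.34), but not without replicate 1 at 0 h (-0.91, adjusted p = 0.082). In the Eed knockout Foxn4 stood at 1.10, 1.56 and 1.68 CPM and then at 1.71, 2.76 and 1.40 CPM, which overlapped and was not called. Foxd1 rose in both knockouts, from 4.87, 5.04 and 4.55 CPM to 17.5, 20.4 and 17.0 CPM (1.92 ± 0.19) and from 1.72, 1.14 and 1.08 CPM to 10.6, 7.02 and 5.34 CPM (2.51 ± 0.27). Foxc1 and Foxd2 rose in the Eed knockout (1.29 ± 0.31 and 1.38 ± 0.43), the latter not without replicate 1 at 0 h (1.20, adjusted p = 0.05). Foxj1 (-2.14 ± 0.37) and Foxe1 (22 to 1 counts) fell in the Ezh2 knockout. Foxn2 (0.24 ± 0.10) was called higher there, a call lost in 5 of the 6 fits that left out 1 library (adjusted p up to 0.14). On the RUV-normalized values neither of the rises of Foxc1 and Foxd2 was called (adjusted p = 0.13 and 0.31).

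Against 1A wild type in serum, the Eed knockout had 13 members higher and 8 lower of 31, beside 26.4% and 23.3% of all genes (medians 0.04 and 0.00). At 96 h it had 19 higher and 2 lower, beside 30.9% and 24.4% (medians 0.71 and 0.02). For the 24 members with at least 3 wild-type libraries above the filter, Foxr2 among them, the counts were 7 and 8 in serum and 12 and 2 at 96 h, with medians of -0.04 and 0.42. The members higher at both times included all tested factors of the mesoderm, vessel and mesenchyme class (Foxc2, Foxd1, Foxd2, Foxf1, Foxf2 and Foxq1) but Foxc1, which was called at 96 h and not in serum. That class counted 6 of 7 higher in serum and 7 of 7 at 96 h (medians 3.29 and 2.74), but 5 of the 7 are among those that had to be higher. Beside these members, markers of other lineages were higher too, and their part in the result was not tested.

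The 17 primitive endoderm markers summed to 7532 to 8039 CPM in Eed knockout serum libraries against 1775 to 1953 CPM in 1A, with 15 of 16 tested higher, and at 96 h to 3281 to 3630 against 2480 to 2704 CPM. The 13 trophoblast markers summed to 1785 to 2322 against 309 to 363 CPM in serum (13 of 13 higher) and 3152 to 3288 against 408 to 494 CPM at 96 h (12 of 13). The 10 mesoderm markers summed to 37.4 to 37.6 against 10.3 to 15.7 CPM in serum, with 6 of 7 tested higher and T at 0 in both groups. The 10 pluripotency markers summed to 4722 to 4951 against 6448 to 6693 CPM in serum. The 10 neural markers were at 151 to 159 against 176 to 190 CPM, with 2 of 7 tested higher and 2 lower. At 96 h they were at 223 to 237 against 125 to 131 CPM, with 5 of 7 higher and 1 lower. The 15 fibroblast markers were at 535 to 568 against 598 to 755 CPM in serum and at 1011 to 1294 against 1118 to 1212 CPM at 96 h. At each time 6 of 10 tested were higher and 2 lower.

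Foxq1 (chr13:31742153-31744959, plus strand), a factor of hair follicle and stomach, had the highest level of the lineage factors raised in the Eed knockout at 0 h. Its serum libraries held 49.0, 41.0 and 47.5 CPM there and 0.886, 3.10 and 3.55 CPM in 1A (4.29 ± 0.23, adjusted p = 5.9e-22). At 96 h they held 25.4, 19.6 and 23.3 CPM against 1.11, 1.14 and 1.28 CPM (4.25 ± 0.28, adjusted p = 1.2e-18). No library of the 2 lines overlapped, although Foxq1 fell with 2i in the knockout (-1.01 ± 0.15). Its V19 libraries held 3.08, 3.07 and 3.83 CPM in serum and 0.688, 1.90 and 1.72 CPM at 96 h. That fall (-1.14 ± 0.40) was not called without replicate 3 at 0 h (adjusted p = 0.054) or replicate 1 at 96 h (adjusted p = 0.091).

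Foxf2 (chr13:31809799-31815389, plus strand), a factor of palate and gut mesenchyme, passed the filter only through Eed knockout libraries. Being higher there was thus fixed, and its difference from 1A is a description. It had 0 counts in all 3 libraries of 1A wild type in serum. The Eed knockout had 96 counts there, at 4.87, 5.04 and 6.06 CPM, which makes it at least 29.8-fold higher when the wild type is set at 3 counts over the group. At 96 h the knockout stood at 3.72, 2.76 and 3.07 CPM and 1A at 0.159, 0.190 and 0 CPM (65 against 2 counts). Its Ezh2 knockout libraries held 4 counts in serum and 10 at 96 h, and V19 held 2 and 5. The fall of Foxf2 with 2i in the Eed knockout (-0.74 ± 0.28) was not called without replicate 3 at 0 h or replicate 2 or 3 at 96 h (adjusted p = 0.11, 0.1 and 0.076).

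Its paralogue Foxf1, needed for lung and gut mesenchyme, stood at 2.51, 3.13 and 1.85 CPM against 0.148, 0.489 and 0 CPM in serum (3.29 ± 0.61, and 3.96 ± 0.61 at 96 h). Foxf1 and Foxl2 passed the filter only through the Eed knockout too, so that being higher there was fixed. Foxl2 (chr9:98837660-98840179, plus strand), the granulosa cell factor of the ovary, stood at 2.51, 3.48 and 2.53 CPM against 0.443, 0.652 and 0.761 CPM in serum (2.21 ± 0.47). At 96 h it stood at 1.86, 3.49 and 2.93 CPM against 0.318, 0.761 and 0.366 CPM (2.51 ± 0.48). Its Ezh2 knockout libraries held 0.172, 0.254 and 0.308 CPM in serum and 0.165, 0 and 0.218 CPM at 96 h, and its V19 libraries 0.162, 0.409 and 0 CPM and 0.458, 0.190 and 0.344 CPM. On the authors' RUV-normalized values the differences of Foxl2 from 1A turned to -0.73 in serum and -0.94 at 96 h, neither called.

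Foxd1 was higher in the Eed knockout by 3.47 ± 0.40 in serum (adjusted p = 3.2e-10) and by 2.32 ± 0.20 at 96 h (adjusted p = 3e-14), with the library values given above. Foxj2 (chr6:122797143-122822325, plus strand), a broadly made factor, stood at 21.2, 24.0 and 23.1 CPM against 5.91, 7.50 and 7.36 CPM in 1A serum libraries (1.73 ± 0.19, adjusted p = 5.9e-11). At 96 h it stood at 28.4, 30.0 and 29.6 CPM against 9.05, 10.7 and 8.98 CPM (1.62 ± 0.17, adjusted p = 1.7e-11). The V19 libraries held 10.7, 5.11 and 8.93 CPM and 10.1, 13.1 and 13.4 CPM, and the Ezh2 knockout 9.27, 8.89 and 9.08 CPM and 9.40, 15.7 and 13.6 CPM. Its Eed knockout libraries lay above those of the other lines at both times. The small rise of Foxj2 with 2i in the Eed knockout (0.37 ± 0.15) was lost in all 6 fits that left out 1 library (adjusted p 0.06 to 0.15) and was -0.10 on RUV-normalized values. In the Ezh2 knockout it was 0.51 ± 0.19, a call lost in 4 of 6 such fits (adjusted p up to 0.14).

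**Figure D4:**
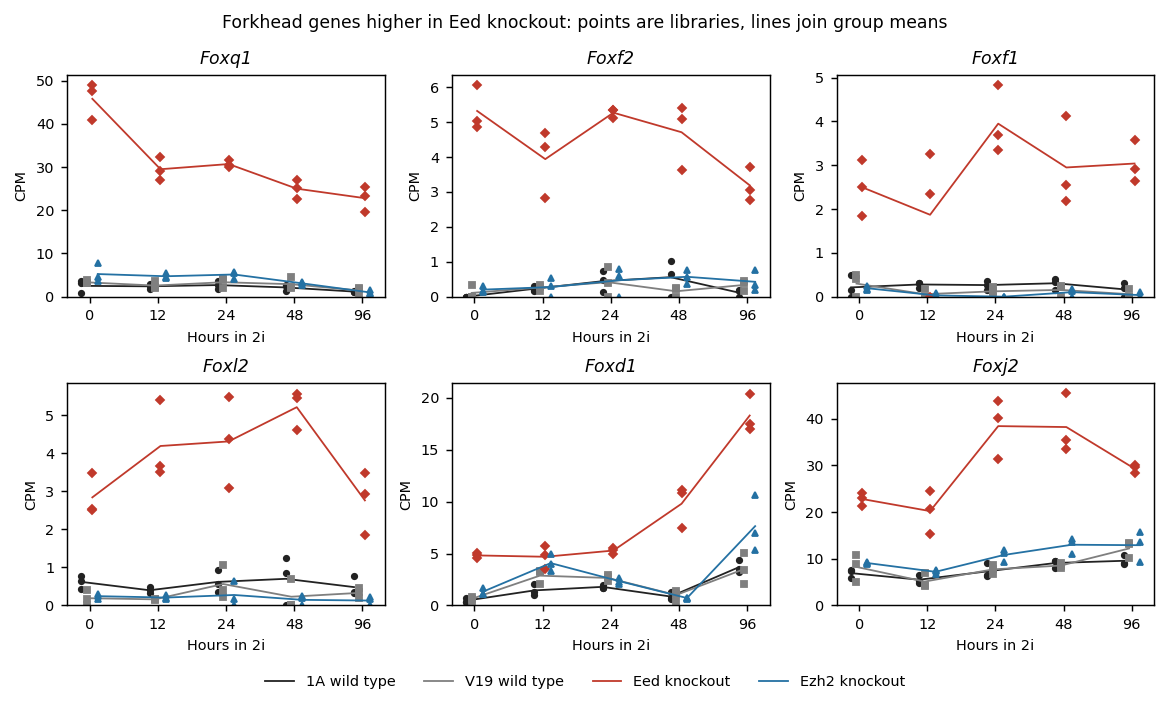
CPM (linear axis from 0) against hours in 2i for Foxq1, Foxf2, Foxf1, Foxl2, Foxd1 and Foxj2, with 1 point per library and lines through group means. The group means of the Eed knockout lie above those of the other lines in each panel, Foxd1 rises to 18.3 CPM there by 96 h, and 1 library of the Eed knockout at 12 h has 0 CPM of Foxf1.

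Foxa1, Foxc1, Foxc2 and Foxd2 passed the filter only through the Eed knockout, so being higher there was fixed and their differences from 1A are a description. The endoderm factor Foxa1 was at 3.46 ± 0.56 in serum and 2.05 ± 0.49 at 96 h, beside Foxc2 of vessels and lymphatics (2.27 ± 0.66 and 2.39 ± 0.64) and Foxd2 of kidney mesenchyme (2.61 ± 0.84 and 2.17 ± 0.50). Without replicate 1 of 1A wild type the serum value of Foxd2 was 1.96 (adjusted p = 0.071). Foxc1, a factor of eye and vessels, was at 2.74 ± 0.40 at 96 h. Among members with wild-type libraries above the filter, those higher at 96 h included Foxe1 (3.28 ± 0.87), Foxi3 (1.42 ± 0.28), Foxj1 (1.21 ± 0.35) and Foxo4 (1.31 ± 0.10). Foxn1, the thymus factor, was not tested but had 36 counts in the Eed knockout at 96 h and 0 in 1A wild type, at least 9.96-fold higher with the wild type at 3 counts over the group. Foxb2, a neural factor, had 10 and 0 counts in serum, at least 3.11-fold higher on the same floor.

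Foxp1 was lower in the Eed knockout by 3.64 ± 0.14 on the log2 scale in serum (adjusted p = 2.7e-27), and at 96 h its difference was -0.27 and not called. Foxr2 (chrX:151897577-151915857, plus strand), which had to be lower, had 5 counts in serum against 64 in 1A wild type (0.275 ± 0.0883 against 3.78 ± 0.540 CPM, SD, n = 3) and 2 against 15 at 96 h. Foxn4 was lower in serum (-1.37 ± 0.30), and so were Foxn3 (-0.72 ± 0.11), Foxo1 (-0.53 ± 0.08), Foxp4 (-0.53 ± 0.12), Foxi3 (-0.51 ± 0.17) and Foxh1 (-0.34 ± 0.09). Foxi3 lost that call without replicate 2 of 1A wild type (adjusted p = 0.078) or replicate 2 of the knockout (adjusted p = 0.061). Foxo3 was higher in serum (0.94 ± 0.13, adjusted p = 1.5e-08). The calls of Foxo6 (0.79 ± 0.30) and Foxj3 (0.37 ± 0.14) in serum were each lost in 4 of the 6 fits that left out 1 library (adjusted p up to 0.25 and 0.1), and that of Foxk2 at 96 h (0.29 ± 0.12) in 3 of 6 (adjusted p up to 0.12).

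The differences between the Eed knockout and 1A depended on which deposited values were used. The settings of the RUV normalization are not given in the sources used here. On those values 5 members were higher and 5 lower in serum (13 and 8 from the counts), and 5 and 2 at 96 h (19 and 2 from the counts). In serum Foxq1 (1.43, adjusted p = 0.001), Foxd1 (1.24, adjusted p = 0.0022) and Foxo3 were still higher, and Foxp1 still lower (-1.62, adjusted p = 1.4e-09). Foxf2 (2.11) and Foxa1 (1.92) were called higher too. Both had passed the filter only through that knockout, so their values are a description. At 96 h Foxq1 (0.75, adjusted p = 0.098), Foxf2 (0.19, adjusted p = 0.85), Foxd1 (0.25, adjusted p = 0.61) and Foxj1 were not called. Some directions turned. Foxl2 was at -0.73 in serum and -0.94 at 96 h, Foxd2 at -0.25 and -0.09, Foxn4 at 0.10 in serum, and Foxr2 at 0.56 and Foxj2 at -0.22 at 96 h, none of them called. The interaction terms of Foxo4 (1.33), Foxp1 (3.68), Foxh1 (0.86) and Foxo3 (-0.79) were called on these values too. The cause was not tested.

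The Ezh2 knockout differed from 1A wild type in fewer members. In serum 6 were higher and 3 lower, beside 11.9% and 10.9% of all genes (medians -0.17 and 0.01). At 96 h 4 were higher and 4 lower, beside 6.56% and 6.65% (medians -0.09 and 0.01). In serum Foxo3 was higher (1.17 ± 0.13, adjusted p = 1.4e-10), Foxp4 was higher (0.45 ± 0.11), and Foxp1 (-0.98 ± 0.12, adjusted p = 2e-09) and Foxn3 (-0.62 ± 0.11) were lower. These 4 calls held in every fit that left out 1 library. The third lower member was Foxr2 (-1.66 ± 0.33), which had to be lower through the filter. Beside these, the primitive endoderm markers summed to 2354 to 2585 against 1775 to 1953 CPM in 1A, with 12 of 16 tested higher, 0 lower and a median of 0.97. Their part in the result was not tested. The split of 6 and 3 became 5 and 4 with RLE factors and 5 and 5 on RUV-normalized values. Foxa1 (2.11 ± 0.68) and Foxd1 (1.58 ± 0.53) each lost theirs in 3 of 6 such fits (adjusted p up to 0.14 and 0.13), Foxk1 (0.49 ± 0.19) in 5 (adjusted p up to 0.22), and Foxq1 (1.14 ± 0.31) without replicate 1 of 1A (adjusted p = 0.15) or replicate 3 of the knockout (adjusted p = 0.11). The serum libraries of Foxq1 held 4.46, 3.55 and 7.70 CPM in the Ezh2 knockout, and its 96 h libraries 0.660, 0.739 and 1.53 CPM, a fall of its own (-2.27 ± 0.35, adjusted p = 3.8e-07).

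At 96 h the Ezh2 knockout was higher in Foxd1 (1.02 ± 0.23) and Foxh1 (0.54 ± 0.10, adjusted p = 9.5e-05) and these 2 calls held in every fit that left out 1 library. Foxp4 (0.40 ± 0.12) lost its call without replicate 1 of 1A (adjusted p = 0.056) or replicate 3 of the knockout (adjusted p = 0.073). Foxn4 (-1.30 ± 0.36) lost its call without replicate 2 of 1A (-1.02, adjusted p = 0.13) and Foxo1 (-0.31 ± 0.09) without replicate 1 of the knockout (-0.24, adjusted p = 0.12). Foxp1 (-0.77 ± 0.22) lost it in 3 fits (adjusted p up to 0.069), Foxc1 (-2.84 ± 0.91, 1 against 8 counts) in 5 (adjusted p up to 0.14) and Foxk2 (0.34 ± 0.12) in all 6 (adjusted p up to 0.21). On RUV-normalized values 2 were higher and 4 lower, and Foxd1 was no longer called. The count of calls was 5 without replicate 1 or 2 of 1A or replicate 1 or 3 of the knockout.

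**Figure D5:**
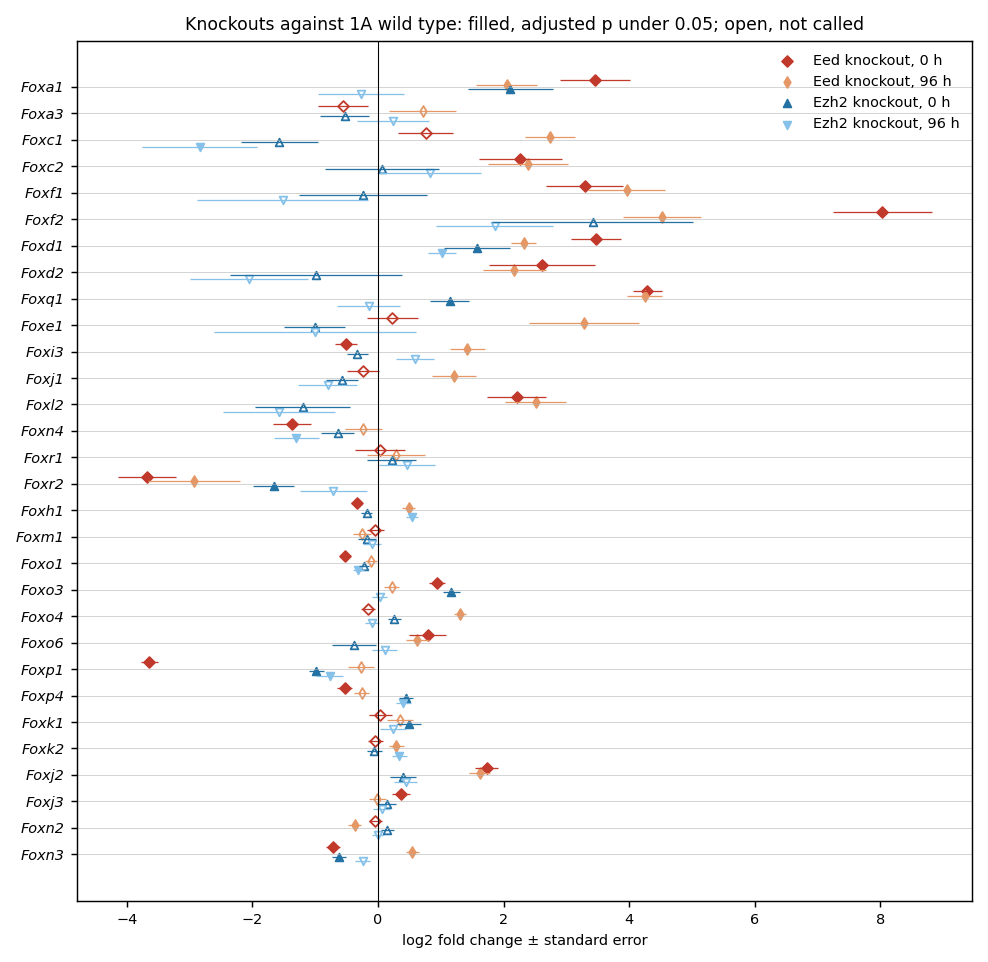
Log2 fold change of each knockout against 1A wild type with its standard error, in serum (0 h) and at 96 h of 2i, for 30 of the 31 tested forkhead genes (rows); filled symbols passed an adjusted p of 0.05. The Eed symbols of Foxq1 lie near 4.29 and 4.25, those of the Ezh2 knockout lie closer to 0 for most rows, and the Foxf2 symbol at 0 h rests on 0 wild-type counts.

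Tested directly in serum, the Eed knockout had 13 members higher and 6 lower than the Ezh2 knockout, beside 23.6% and 21.7% of all genes (medians 0.12 and -0.02). For the 24 members with at least 3 wild-type libraries above the filter, both counts were 6. Of the 7 tested factors of the mesoderm class, 5 had passed only through the Eed knockout and had to be higher. The other 2, Foxq1 (3.14 ± 0.19) and Foxd1 (1.89 ± 0.30), were higher as well. Foxp1 (-2.66 ± 0.14, adjusted p = 1.8e-21), Foxr2 (-2.02 ± 0.57) and Foxp4 (-0.98 ± 0.12) were lower. Foxa1 (1.35 ± 0.39) had also passed only through the Eed knockout and had to be higher, so its value is a description. Without replicate 2 of the Ezh2 knockout it was 0.95 (adjusted p = 0.063). The calls of Foxe1 (1.24 ± 0.46) and Foxk1 (-0.45 ± 0.18) were lost in 3 and 5 of the 6 fits that left out 1 library. Their adjusted p rose to 0.18 and 0.12. On RUV-normalized values 0 were higher and 5 were lower, and Foxr2 (0.38) and Foxj2 (-0.11) changed sign without being called.

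The wild-type lines differed in 3 members in serum, 1 higher and 2 lower in V19, beside 5.01% and 5.53% of all genes (medians 0.02 and 0.00). Foxn4 was higher in V19 (0.90 ± 0.22, adjusted p = 0.0039) and Foxi3 (-0.80 ± 0.18, adjusted p = 0.0015) and Foxo1 (-0.46 ± 0.08, adjusted p = 9e-05) were lower. These 3 calls held in every fit that left out 1 library. DESeq2 called 5 members. The RUV-normalized values gave 2 higher and 1 lower, but Foxn4 and Foxi3 were no longer called there. Genes of chromosome 8, where Foxf1, Foxc2 and Foxl1 lie, had a median difference of 0.40 between V19 and 1A, against -0.05 to 0.05 on the other numbered chromosomes. Neither Foxf1 nor Foxc2 was called between these lines.

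Forkhead members lie near one another in places, and these were compared by level only. On chromosome 13, Foxq1, Foxf2 and Foxc1 lie in a row, 64.8 kb and 175 kb apart, and their differences between the Eed knockout and 1A were positive at 96 h. On chromosome 8, Foxf1, Foxc2 and Foxl1 follow at 28.0 kb and 8.79 kb. Foxl1 had no count. Foxf2, Foxc1, Foxf1 and Foxc2 passed the filter only through Eed knockout libraries, so a shared direction of neighbours there supports nothing. On chromosome 4, Foxd2 and Foxe3, a lens factor, lie 15.5 kb apart, and Foxe3 had 3 counts in the 60 libraries.

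The partners and targets of 3 forkhead classes were counted from lists that were chosen with earlier results of these data known. Of 30 FoxO pathway and target genes, 7 were higher and 13 lower at 96 h in 1A wild type (median -0.14, all genes 0.02), beside 25.1% and 23.5% of all genes. In V19 the counts were 10 and 11, beside 24.8% and 22.7%. In the Eed knockout they were 13 and 4, beside 23.3% and 16.4%, and in the Ezh2 knockout 11 and 11, beside 22.2% and 20.7%. Bcl2l11, which encodes the death factor Bim, fell in 1A (-3.15 ± 0.12), in V19 (-2.61 ± 0.12), in the Eed knockout (-1.96 ± 0.11) and in the Ezh2 knockout (-2.72 ± 0.11). Gadd45a, a stress gene, fell in 1A (-2.54 ± 0.13), as did Txnip (-1.25 ± 0.08), which restrains glucose uptake. Against 1A at 96 h the Eed knockout had 17 of the 30 higher and 5 lower, beside 30.9% and 24.4% (median 0.45, all genes 0.02), among them Akt1 (1.63 ± 0.07), the kinase that restrains FoxO proteins. The interaction was called for 13 more positive and 2 more negative in Eed, beside 14.9% and 12.4% of all genes, among them Txnip (1.34 ± 0.11) and Akt1 (0.95 ± 0.10). For Ezh2 the counts were 6 and 2, beside 5.42% and 6.76%.

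Of 20 G2/M genes that FoxM1 is known to bind, 8 were lower and 2 higher at 12 h in 1A (median -0.13), beside 20.8% and 20% of all genes, among them Cdc20 (-0.93 ± 0.08), an activator of the anaphase-promoting complex. At 96 h 5 were lower and 3 higher in 1A, beside 23.5% and 25.1%, and 7 and 0 in V19, beside 22.7% and 24.8%. Against 1A at 96 h the Eed knockout had 10 lower and 3 higher, beside 24.4% and 30.9% (median -0.23), among them Top2a (-0.79 ± 0.09) and Bub1 (-0.68 ± 0.08), while Foxm1 itself was not called (-0.25).

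Of 22 Nodal, Smad and FoxH1 partner and target genes, 19 were tested. At 96 h 9 were higher and 6 lower in 1A (25.1% and 23.5% of all genes) and 9 and 4 in V19 (24.8% and 22.7%), beside the falls of Foxh1. The Eed knockout had 9 and 3 (23.3% and 16.4%) and the Ezh2 knockout 11 and 3 (22.2% and 20.7%). The Nodal inhibitor Lefty1 fell in 1A (-2.54 ± 0.19) and V19 (-1.59 ± 0.20). Its 96 h response differed from 1A by 3.00 ± 0.27 in the Eed knockout (adjusted p = 5.3e-13) and by 3.36 ± 0.29 in the Ezh2 knockout (adjusted p = 7.4e-13). The corresponding terms for Lefty2 were 1.47 ± 0.18 and 2.14 ± 0.19. Skil, a Smad repressor, fell in 1A (-2.30 ± 0.13), and its term for Eed was 1.84 ± 0.19. Against 1A in serum the Eed knockout had 11 of the 19 higher and 5 lower, beside 26.4% and 23.3% (median 0.51, all genes 0.00), among them Lefty2 (1.75 ± 0.13) and Eomes (2.69 ± 0.20), a factor of mesendoderm and trophoblast.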

How the data were processed

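Polyadenylated RNA of 60 libraries was counted per gene. The deposited counts are whole reads per gene, made by the authors with STAR 2.7.10b and featureCounts 2.0.3 on GRCm39, per the submitters' processing notes. Those notes list MultiQC 1.14 and DESeq2 as well. 2 sequencing runs were merged per library, per the labels. Whether strand was used in counting is not given in the sources used here, so reads of overlapping genes may be mixed. The deposited RUV score is a normalized count, rounded by the authors, with settings not given in the sources used here. Coordinates and exon lengths come from the count table, and promoter sequences from RefSeq.

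Counts of all 50559 genes were filtered with filterByExpr by group (minimum count 10, minimum total 15), scaled by TMM and fitted in edgeR 4.0.16 (R 4.3.3) as 1 quasi-likelihood model of 20 groups with 40 residual degrees of freedom. p-values were adjusted by Benjamini-Hochberg over 15083 genes. Members were called at an adjusted p under 0.05. 14 comparisons were made. Each ± beside a log2 change is a standard error.

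Members with a call of at least 2-fold and a group mean of at least 5 CPM are given by library, together with Foxh1, Foxn3 and Foxf1, which were added after their values were seen. 1 tested member is counted but not reported here on its own. Others are named among the largest changes of a comparison. The members and gene lists were chosen with earlier results of these data known. The labels do not say that a replicate number marks a shared day or dish. Deviations of same-numbered libraries from their groups had a median correlation of 0.000848 over 570 pairs (-0.409 to 0.411, 10.5% over 0.1). These pairs mix all lines and times, so the median cannot exclude pairing in some groups. Over 60 pairs of libraries within a group, the chi-square per degree of freedom ran from 1.13 to 25.6 (median 2.59). No library was thus a copy of another in its group, though the least different pair differed little. Libraries of different groups were not compared in this way. Alternatives were RLE factors, other filters, DESeq2 1.42.0, a replicate block, only the groups compared, limma-trend (limma 3.58.1) on log2 of the RUV values plus 1, and leaving out each library.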

Additional observations from a re-analysis of the deposited data

Results flagged for a closer look

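The 96 h response to 2i differed between the Eed knockout and 1A wild type in 11 members by the interaction term of edgeR's quasi-likelihood test (log2 scale, ± standard error). It was more positive for Foxp1 (3.37 ± 0.26), Foxe1 (3.04 ± 1.01), Foxc1 (1.98 ± 0.65), Foxi3 (1.93 ± 0.33), Foxo4 (1.47 ± 0.15), Foxj1 (1.44 ± 0.43), Foxn3 (1.27 ± 0.16), Foxn4 (1.13 ± 0.43), Foxh1 (0.82 ± 0.14) and Foxo1 (0.42 ± 0.12), and more negative for Foxo3 (-0.72 ± 0.17). For the Ezh2 knockout it was more positive for Foxh1 (0.71 ± 0.14) and more negative for Foxo3 (-1.14 ± 0.17). Foxe1, Foxc1, Foxj1 and Foxn4 rest on few reads. Foxc1 had passed the filter only through Eed knockout libraries, so its interaction term is a description. The term was lost for Foxn4 in 7 of 12 fits that left out 1 library (adjusted p up to 0.27) and for Foxc1 in 4 (adjusted p up to 0.066). It was lost for Foxe1 without replicate 3 of 1A wild type or of the Eed knockout at 96 h (adjusted p = 0.069 and 0.051) and for Foxj1 without replicate 2 of 1A wild type at 0 h (adjusted p = 0.11). The other 7 were called in each of those fits.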

How the results depend on the processing

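Of 174 calls of single members, 169 were kept with RLE factors, 165 with DESeq2, 172 with the replicate block, 158 without a filter and 115 on the RUV-normalized values, where 10 changed sign. The RUV values gave 10 called members in place of 21 for Eed against 1A wild type in serum, 7 in place of 21 at 96 h and 5 in place of 19 for Eed against Ezh2. The 10 changes of sign were Foxj2 in the Eed knockout's 2i response (-0.10), in Eed against 1A at 96 h (-0.22) and in Eed against Ezh2 (-0.11), Foxl2 (-0.73 in serum, -0.94 at 96 h), Foxd2 (-0.25, -0.09) and Foxn4 (0.10 in serum) in Eed against 1A, Foxr2 (0.56) there at 96 h, and Foxr2 (0.38) in Eed against Ezh2. The cause was not tested.

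Without a filter, 5 members in place of 8 were called for Ezh2 against 1A at 96 h and 7 in place of 11 for the Eed interaction. For V19 against 1A, 3 became 5 with DESeq2 and 6 with only the groups compared or without the libraries that stood apart. In the same 2 settings the Ezh2 interaction went from 2 to 5 and 4, and the V19 interaction from 0 to 2 and 2. The replicate block ended the calls of Foxj2 in the Eed knockout's 2i response (0.37, adjusted p = 0.051) and Foxk2 in Ezh2 against 1A at 96 h (0.34, adjusted p = 0.053), and no other call of a member. Whether same-numbered libraries share a day or dish is not given in the labels.

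Leaving out 1 library gave 11 to 14 calls for 1A at 12 h (14 with all), 16 to 18 for 1A at 96 h (18), 18 to 20 for V19 (20), 11 to 14 for the Eed (15) and 13 to 15 for the Ezh2 knockout (16). It gave 18 to 20 for Eed against 1A in serum (21), 20 to 22 at 96 h (21), 6 to 11 for Ezh2 against 1A in serum (9), 5 to 6 at 96 h (8), and 17 to 19 for Eed against Ezh2 (19). It gave 3 for V19 against 1A (3), 9 to 11 for the Eed interaction (11), 2 to 3 for that of Ezh2 (2) and 0 for that of V19 (0). Low counts limit the lineage factors.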
